A study of Mus musculus with 8 samples.

Results

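The microRNAs (miRNAs) miR-23a-3p, miR-23b-3p, miR-24-3p, miR-27a-3p and miR-27b-3p are the 3p products of a pair of related gene clusters. They were chosen by name, as the entries of the array that carry exactly these 5 mature names, and made up 5 of the 611 mouse miRNAs on the array. All 5 were detected on 8 of 8 arrays, so none was lost to the filter on dim miRNAs. The cells were C3H10T1/2, an established line of mouse embryonic mesenchyme in which hedgehog signalling can be switched on. For the WT group the medium held 750 nM wild type IhhN over 48 h, which is the N-terminal signalling part of Indian hedgehog. The MT group received 750 nM of IhhN with the E95K mutation, which causes brachydactyly type A1, for 48 h. The control group was described as not induced, although its labels also carry the dose, and its cells were likewise labelled as 48 h. Each of the 3 groups had 2 RNA samples of this 1 cell line, and each WT sample was hybridized on 2 arrays, which made 4 WT, 2 MT and 2 control arrays. The comparisons ask whether miRNA levels followed the induction and whether the mutant protein differed from the wild type.

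A miRNA is cut from a hairpin RNA and then guides a silencing complex to mRNAs that pair with its seed, bases 2 to 8 counted from its 5′ end. Paralogous clusters give rise to these 5 miRNAs: miR-23a, miR-27a and miR-24-2 are transcribed together from one locus, and miR-23b, miR-27b and miR-24-1 from the other. In skeletal cells miR-23a is known to repress Runx2, the master transcription factor of osteoblasts. Members of the miR-27 family restrain fat cell differentiation by acting on Pparg, and miR-24 is known for repressing cell cycle genes.

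The mature sequences show which members could share targets, and they bear on what the probes could tell apart. Of the 5 members, 4 matched a mature sequence in the RefSeq table used here (build GRCm38.p6), all but miR-23b-3p. They are given 5′ to 3′ with the seed in capitals.
mmu-miR-23a-3p: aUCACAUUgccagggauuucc
mmu-miR-24-3p: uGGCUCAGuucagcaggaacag
mmu-miR-27a-3p: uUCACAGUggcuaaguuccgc
mmu-miR-27b-3p: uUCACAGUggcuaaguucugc

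The products of Mir27a and Mir27b have the same seed, UCACAGU, and the same length of 21 bases. They differ at 1 position, C19U, counted from the 5′ end with the base of miR-27a-3p first. The seed of miR-23a-3p is UCACAUU and that of miR-24-3p is GGCUCAG, so the 4 sequences hold 3 seeds. No other mouse miRNA of the array with a sequence in that table had any of these seeds. The nearest was miR-128-3p, where the miR-27 seed begins at base 1 in place of base 2, so that its own seed, in capitals, is shifted.
mmu-miR-128-3p: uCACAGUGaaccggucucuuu

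On GRCm38.p6, the Mir23a hairpin lies at chr8:84208518-84208592, Mir27a at chr8:84208672-84208758 and Mir24-2 at chr8:84208815-84208921, all on the plus strand and within 404 bases. Mir27b at chr13:63300712-63300784 and Mir24-1 at chr13:63301208-63301275, also on the plus strand, span 564 bases and lie within the bounds of Aopep, an aminopeptidase gene. The Mir23b hairpin of the same cluster was not used here. Mir3074-2 overlaps Mir24-2, and Mir3074-1 overlaps Mir24-1. The array files name the mm9 build, whose coordinates were not used. The hairpins below show why a miR-24-3p signal cannot be assigned to a locus, since both hold the same mature miR-24-3p, in capitals.
Mir24-1 hairpin: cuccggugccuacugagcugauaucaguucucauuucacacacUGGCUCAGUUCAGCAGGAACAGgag
Mir24-2 hairpin: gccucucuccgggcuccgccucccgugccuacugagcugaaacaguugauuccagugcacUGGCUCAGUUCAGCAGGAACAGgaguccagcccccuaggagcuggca

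The opposite arms do differ between these hairpins. After 16 shared bases, miR-24-1-5p and miR-24-2-5p end in the letters shown here in capitals.
mmu-miR-24-1-5p: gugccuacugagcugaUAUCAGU
mmu-miR-24-2-5p: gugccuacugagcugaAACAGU

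Levels were the log2 of the Agilent processed intensity after each array was brought to a common 75th percentile, taken over the 174 probes that every one of the 8 arrays detected. The brighter of the 2 probes stood for each member, and a level is comparable between samples but not between miRNAs. Of the 611 mouse miRNAs, 142 were detected on every array of at least 1 group and were tested, and 103 were detected on all 8 arrays. The arrays detected 104 to 150 mouse miRNAs each. The labels do not say whether the 2 RNA samples of a group came from separate cultures, so p-values measure only the spread between these samples. All 8 arrays lay on 1 slide. The MT arrays were in its left columns and the control arrays in its right columns, while WT replicate 1 lay left and WT replicate 2 right. Side of the slide and group can therefore be separated only through the WT samples. All WT arrays were in row 1 of the slide, and all MT and control arrays were in row 2. In comparisons of WT with either other group, slide row and group thus cannot be told apart. All 5 mesenchymal miRNAs examined (miR-199a-3p, miR-214-3p, miR-143-3p, miR-145-5p and miR-21-5p) were detected, miR-145-5p on 7 arrays and the rest on 8. Of 26 entries for muscle, neuron, blood, epithelium, liver and pluripotent cells, 25 were detected on no array, as were 449 of the 611 mouse miRNAs (73.5%). The remaining entry, miR-290-3p, was detected on 1. None of these mesenchymal miRNAs passed an adjusted p of 0.05 (limma), and they moved in both directions. The log2 differences from control in WT and MT were -0.89 and -0.71 for miR-21-5p, 0.49 and 0.78 for miR-214-3p, 0.35 and 0.36 for miR-145-5p, -0.30 and -0.11 for miR-143-3p, and -0.22 and -0.21 for miR-199a-3p. The smallest adjusted p among them was 0.062, for miR-214-3p in MT (limma), and whether they bear on the levels of the members was not tested. As the samples are bulk RNA, fewer cells carrying a miRNA and less miRNA per cell cannot be told apart.

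None of the 5 members passed the test for a change after induction with either protein. By limma with Benjamini-Hochberg adjustment over the 142 miRNAs, 0 of 5 members passed an adjusted p of 0.05 between WT and control, between MT and control or between WT and MT, where the share of all tested miRNAs that passed was 0% each time. At an unadjusted p of 0.05 the counts of members were again 0 of 5, against 28.2% of all tested miRNAs in WT against control, 39.4% in MT against control and 0% in WT against MT. No member differed by over 2-fold, which 2.11% of tested miRNAs did in WT against control, 0.704% in MT against control and 0% in WT against MT. The spread across members ranged from -0.06 to 0.17 in WT against control and from -0.09 to 0.36 in MT against control, and in both miR-27a-3p was the highest. Against MT, the WT group differed by -0.20 to 0.08, with miR-27a-3p the lowest.

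Neither member of the miR-23 family passed the test against control. In miR-23a-3p, the repressor of Runx2, the log2 levels were 11.47 and 11.38 in the WT samples, 11.32 and 11.50 in the MT samples, and 11.66 and 11.31 in the control samples. The control samples held both the highest and the lowest of the 6 values, so neither induced group separated from control. Its difference from control was -0.06 in WT (SE 0.18, 95% interval -0.48 to 0.36, limma adjusted p = 0.85). In MT it was -0.08 (interval -0.49 to 0.34, limma adjusted p = 0.78), and WT exceeded MT by 0.02 (interval -0.40 to 0.44).

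The paralog miR-23b-3p comes from the other locus. Its log2 levels were 10.23 and 10.09 in WT, 10.05 and 10.16 in MT, and 10.24 and 9.96 in control. Here too the control samples enclosed the other 4. The difference from control was 0.06 in WT (SE 0.16, interval -0.33 to 0.45, limma adjusted p = 0.84) and 0.01 in MT (interval -0.38 to 0.40, limma adjusted p = 0.99). Between WT and MT it was 0.05 (interval -0.34 to 0.44).

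The signal of miR-24-3p, made by both loci, spread the most between replicates in MT and control. Its log2 levels were 10.07 and 9.90 in WT, 9.74 and 10.17 in MT, and 10.30 and 9.78 in control. MT and control each held a high and a low sample, and the WT samples lay between them. The difference from control was -0.05 in WT (SE 0.23, interval -0.61 to 0.50, limma adjusted p = 0.89) and -0.09 in MT (interval -0.64 to 0.47, limma adjusted p = 0.79), and WT exceeded MT by 0.03 (interval -0.52 to 0.59). With intervals this wide, a 1.38-fold rise in MT would still lie within them.

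The miR-27 family showed the one separation of groups among the members. For miR-27a-3p, the log2 levels were 9.38 and 9.23 in WT, 9.61 and 9.40 in MT, and 9.28 and 8.996 in control. Both MT samples were above all other samples, whereas WT overlapped control. The margin over WT was narrow, with MT replicate 2 at 9.398 and WT replicate 1 at 9.383. For scale, the 2 arrays of a WT sample differed by 0.012 in replicate 1 and 0.043 in replicate 2. MT exceeded control by 0.36, or 1.29-fold (SE 0.17, interval -0.05 to 0.78, limma adjusted p = 0.16), which did not pass the test. In folds the interval ran from 0.967 to 1.72. WT exceeded control by 0.17 (interval -0.25 to 0.58, limma adjusted p = 0.52) and WT minus MT was -0.20 (interval -0.61 to 0.22, limma adjusted p = 0.99).

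Such separation was common on these arrays. MT and control did not overlap for 67.6% of the tested miRNAs, against 1 of 5 members. WT and MT did not overlap for 26.1%, again against 1 of 5 members and again miR-27a-3p. In WT against control, 64.8% of tested miRNAs and 0 of 5 members did not overlap. Ordered by the size of the MT difference, miR-27a-3p was number 73 of 142.

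The level of miR-27a-3p in MT against control also moved with the scaling and with the samples kept. It fell to -0.35 (limma adjusted p = 0.62) when the 75th percentile was taken over all mouse miRNA probes, a scaling that lowered the median of all tested miRNAs in this comparison from 0.13 to -0.52. When the fit allowed for slide side it was 0.21 (limma adjusted p = 0.92). The side term rests on the 2 WT samples alone, which differed by 0.15 in miR-27a-3p. An effect of side thus cannot be told from a difference between WT replicates. Without MT replicate 1 the MT difference was 0.26, and without control replicate 2 it was 0.22. It was 0.47 without MT replicate 2 and 0.51 without control replicate 1.

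In miR-27b-3p, which has the same seed, the log2 levels were 8.65 and 8.45 in WT, 8.46 and 8.47 in MT, and 8.68 and 8.21 in control. The MT samples nearly coincided, and control again held the highest and the lowest value. The difference from control was 0.10 in WT (SE 0.20, interval -0.36 to 0.57, limma adjusted p = 0.74) and 0.02 in MT (interval -0.44 to 0.49, limma adjusted p = 0.96), and WT exceeded MT by 0.08 (interval -0.38 to 0.54).

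**Figure D1:**
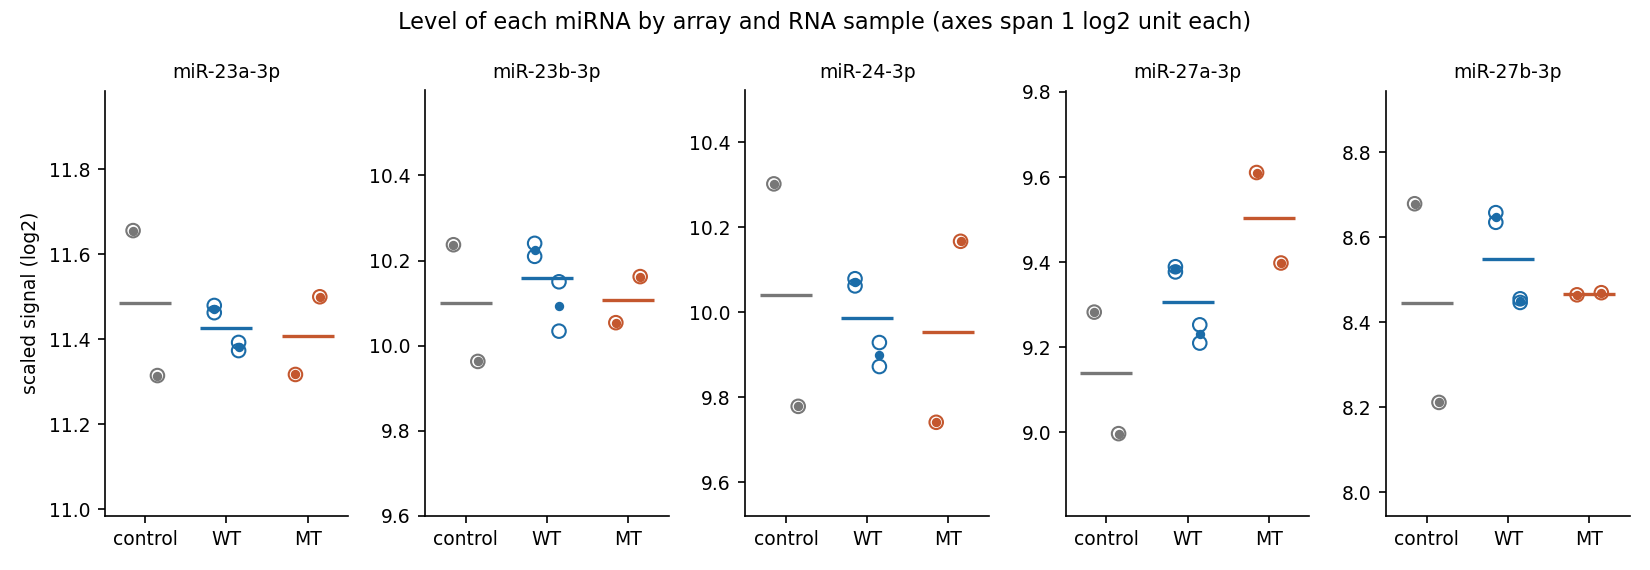
Scaled log2 signal (vertical axis) of each member in the control, WT and MT groups (horizontal axis), with replicate 1 to the left and replicate 2 to the right in each group. Open circles are arrays, filled points are RNA samples and bars are means of 2 samples. The control samples enclose the others for miR-23a-3p, miR-23b-3p and miR-27b-3p, and both MT samples of miR-27a-3p, at 9.61 and 9.40, are above all others.

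Under the scaling used here, most members had smaller differences than the median miRNA. The median size of the difference over the 142 tested miRNAs was 0.32 in WT against control and 0.37 in MT against control. Ordered by size, the members ranked 107 to 130 of 142 in WT against control, and in MT against control miR-24-3p, miR-23a-3p, miR-27b-3p and miR-23b-3p ranked 127, 128, 134 and 138. The median of the signed differences of the members was 0.06 in WT and 0.01 in MT, beside 0.12 and 0.13 over all tested miRNAs. This order depended on the scaling. With the 75th percentile over all mouse miRNA probes, the medians of the members were -0.30 in WT and -0.71 in MT, beside -0.19 and -0.52 over all tested miRNAs. This percentile drew on the probes of all 611 mouse miRNAs, of which 449 (73.5%) were detected on no array. That scaling put miR-23a-3p at -0.42 and -0.79 and miR-24-3p at -0.41 and -0.80 in WT and MT against control, and no member passed the test there. In WT against MT, under the scaling used here, the medians were 0.03 for the members and -0.04 for all, and the ranks by size were 32 for miR-27a-3p and 86 to 128 for the rest. Both induced groups were compared with the same control samples, so their values are not independent.

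**Figure D2:**
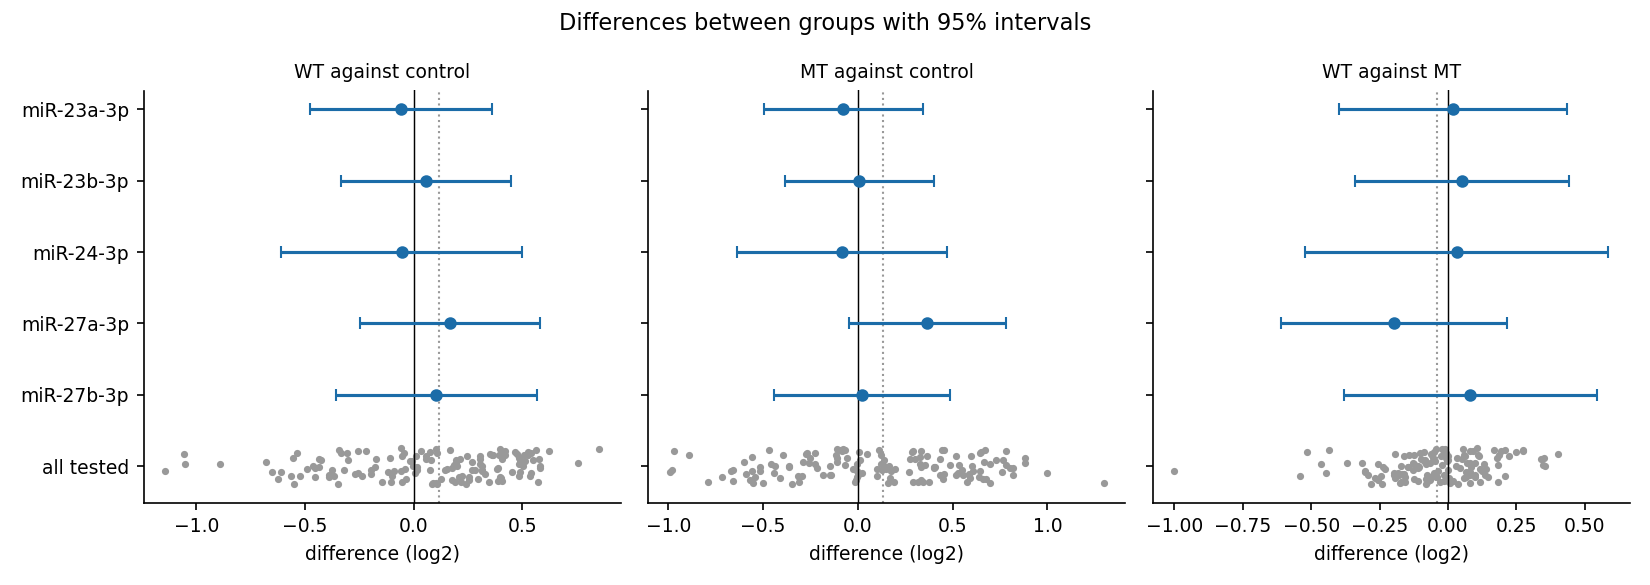
Log2 differences between groups (horizontal axis) for the 5 members with 95% intervals from limma, beside all 142 tested miRNAs as grey points. The dotted line is the median of all tested miRNAs, at 0.12, 0.13 and -0.04 in the panels from left to right. Every interval of a member includes 0, and miR-27a-3p in MT against control comes nearest to leaving it out, at -0.05 to 0.78.

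Control replicates lay far apart in the members, relative to most of the differences between groups. Control replicate 1 was above control replicate 2 in all 5 members, by 0.34 in miR-23a-3p, 0.27 in miR-23b-3p, 0.52 in miR-24-3p, 0.29 in miR-27a-3p and 0.47 in miR-27b-3p. Over all tested miRNAs the median gap of these samples was 0.20, and by size of gap the members ranked 20 to 52 of 142. All 5 were thus farther apart than the median miRNA, and this pair carries every comparison with control. In MT the gap of miR-24-3p was 0.43, with replicate 2 higher, and the other members differed by 0.01 to 0.21. In WT the gaps were 0.09 to 0.20. The 2 arrays of a WT sample differed by 0.01 to 0.12, so hybridizing the same RNA again moved a member less than the change of control sample did.

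Without control replicate 1, the differences of miR-23a-3p and miR-24-3p from control turned positive, at 0.11 and 0.21 in WT and 0.09 and 0.18 in MT. Without control replicate 2, those of miR-23b-3p and miR-27b-3p turned negative, at -0.08 and -0.13 in WT and -0.13 and -0.21 in MT. The sign of these 4 members thus depended on which control sample was kept.

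Each member was read by 2 probes of its own. Whether the probes of miR-27a-3p and miR-27b-3p, whose targets differ at 1 base, also bind the other paralog was not tested. Nor was it tested for the probes of miR-23a-3p and miR-23b-3p, whose sequences were not compared here. The dimmer probe of miR-27a-3p put MT 0.32 above control, beside 0.36 for the brighter one, and WT 0.18 above control, beside 0.17. At the dimmer probe, however, MT and WT overlapped. MT replicate 2 was at 8.184 there, between the 2 arrays of WT replicate 1, at 8.243 and 8.176. For miR-23a-3p the dimmer probe gave -0.07 in WT and -0.11 in MT, and for miR-24-3p it gave -0.06 and -0.07. The probes of miR-23b-3p parted in sign in WT, at 0.06 and -0.02, and in MT, at 0.01 and -0.0036. Those of miR-27b-3p parted in MT, at 0.02 and -0.04, values far inside the spread of the control samples. Each probe had 10 spots. Mean intensities before scaling ran from 64.4 for the dimmer probe of miR-27b-3p to 5266 for the brighter probe of miR-23a-3p, compared with SDs of 2.91 to 6.63 among the negative control spots of the arrays. No spot was saturated, so every member was measured within the range of the scanner.

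**Figure D3:**
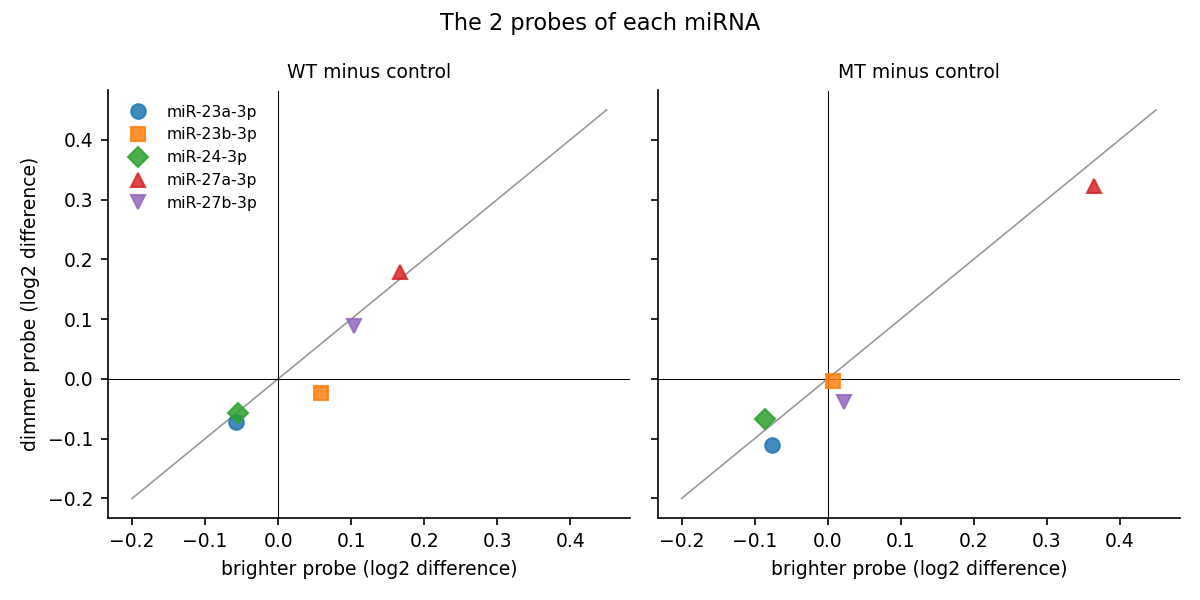
Log2 difference from control at the dimmer probe (vertical axis) against that at the brighter probe (horizontal axis) of each member, with equal values along the grey line. Left, WT minus control. Right, MT minus control, where miR-27a-3p lies at 0.36 and 0.32, apart from the other members.

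The paralogs were then compared within each sample, where the scaling between arrays cancels. A difference between 2 miRNAs depends on their probes, so only its change between groups was read. For miR-27a-3p minus miR-27b-3p the log2 difference was 0.74 and 0.78 in the WT samples, 1.15 and 0.93 in the MT samples, and 0.60 and 0.79 in the control samples. Both MT samples were above the other 4. The mean was higher in MT than in control by 0.34, and WT minus MT was -0.28, each with a two-sided exact permutation p of 0.333, the smallest that 2 against 2 samples allow. WT and control overlapped and differed by 0.06. The pair was compared with results of these data known.

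For miR-23a-3p minus miR-23b-3p the values were 1.25 and 1.29 in WT, 1.26 and 1.34 in MT, and 1.42 and 1.35 in control. The control samples were the highest, and the means of WT and MT minus control were -0.12 and -0.08, with an exact permutation p of 0.333 each. WT and MT overlapped. In MT the mean was therefore above control for the miR-27 pair and below it for the miR-23 pair, and the difference between these shifts was not tested. Within the locus of Mir23a, miR-23a-3p minus miR-27a-3p was 2.09 and 2.15 in WT, 1.71 and 2.10 in MT, and 2.37 and 2.32 in control, so both induced groups were below control, at -0.23 for WT minus control and -0.44 for MT minus control (exact permutation p of 0.333 each). This last pair was picked after its values were seen.

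Separation of within-sample differences was as common outside these miRNAs. Of the 10 pairs among the 5 members, 6 did not overlap between WT and control, 5 between MT and control and 2 between WT and MT. Over all 10011 pairs of tested miRNAs the shares were 56.9%, 61.1% and 24.4%.

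**Figure D4:**
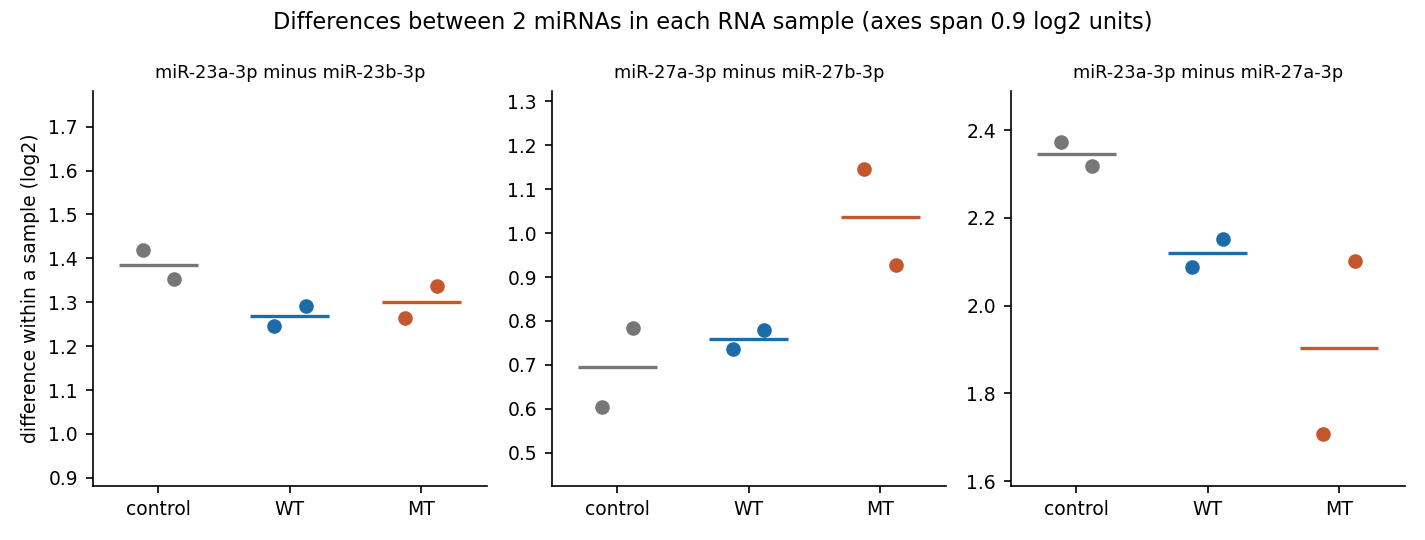
Log2 difference between 2 members within each RNA sample (vertical axis) in the control, WT and MT groups, with points for samples and bars for the means of 2. The zero of each axis depends on the probes, so only shifts between groups can be read. MT lies at 1.15 and 0.93 for miR-27a-3p minus miR-27b-3p, above the other 4 samples, which lie between 0.60 and 0.79.

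Across the 6 RNA samples, miR-23a-3p and miR-24-3p had the most similar levels of any pair of members (Pearson r = 0.98), followed by miR-23b-3p and miR-27b-3p (r = 0.95). Correlations of miR-27a-3p with its cluster partners were 0.06 for miR-23a-3p and 0.05 for miR-24-3p, and with its paralog miR-27b-3p 0.51. The points of these correlations share arrays and scaling, and no p-value was taken from them. Among the 137 other tested miRNAs, those closest to the mean of the members over the 6 samples were miR-30d-5p (r = 0.92), miR-365-3p (r = 0.90) and miR-103-3p (r = 0.89).

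Of the 6 opposite arms of these hairpins, 4 were on the array, and miR-27a-5p and miR-27b-5p were detected on 0 of 8 arrays. The arm that only Mir24-2 makes, miR-24-2-5p, was detected on 8 arrays, with log2 levels of 6.16 and 6.55 in WT, 6.09 and 6.25 in MT, and 6.44 and 6.12 in control. These groups overlapped, and the differences from control were 0.08 in WT and -0.11 in MT (limma adjusted p = 0.84 and 0.71). The arm that only Mir24-1 makes, miR-24-1-5p, was detected on 5 arrays, with levels of 4.49 and 5.02 in WT, 4.56 and 4.26 in MT, and 4.69 and 4.41 in control. It differed from control by 0.21 in WT and -0.14 in MT (limma adjusted p = 0.54 and 0.68). Thus neither arm that tells the miR-24 loci apart passed the test, and miR-24-1-5p was detected on only 5 of 8 arrays. Control was the only group in which every array detected miR-24-1-5p, and its levels of 4.26 to 5.02 were not far above the floor of 3.97. Whether the probes of these arms, which share their first 16 bases, also bind the other arm was not tested. The miRNA with the shifted seed, miR-128-3p, was detected on 5 arrays and differed from control by 0.20 in WT and 0.05 in MT (limma adjusted p = 0.43 and 0.83).

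A panel of miRNAs known to act on Runx2, to which miR-23a belongs, was examined next. Of 18 further arms of the panel, some of them passenger arms, 13 were detected on no array, as were 449 of the 611 mouse miRNAs (73.5%), and 5 were tested (miR-30c-5p, miR-34c-5p, miR-34c-3p, miR-135a-1-3p and miR-218-5p). None of the 5 passed an adjusted p of 0.05 in any comparison by limma. At an unadjusted p of 0.05, miR-34c-5p differed from control by -0.39 in both WT and MT, and miR-218-5p by -0.45 in WT, with adjusted p of 0.16, 0.11 and 0.16. These are 2 of 5 in WT and 1 of 5 in MT, beside 28.2% and 39.4% of all tested miRNAs. The median of the 5 was -0.05 in WT against control, -0.27 in MT against control and 0.01 in WT against MT. Beside these stood -0.06, -0.08 and 0.02 for miR-23a-3p, and 0.12, 0.13 and -0.04 over all tested miRNAs. The WT median was the value of miR-135a-1-3p, detected on 5 of 8 arrays with levels of 3.97 to 4.60, at or near the floor of 3.97. In WT and MT against control, miR-30c-5p differed by 0.01 and -0.27, miR-34c-3p by 0.19 and -0.03, and miR-218-5p by -0.45 and -0.41.

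**Figure D5:**
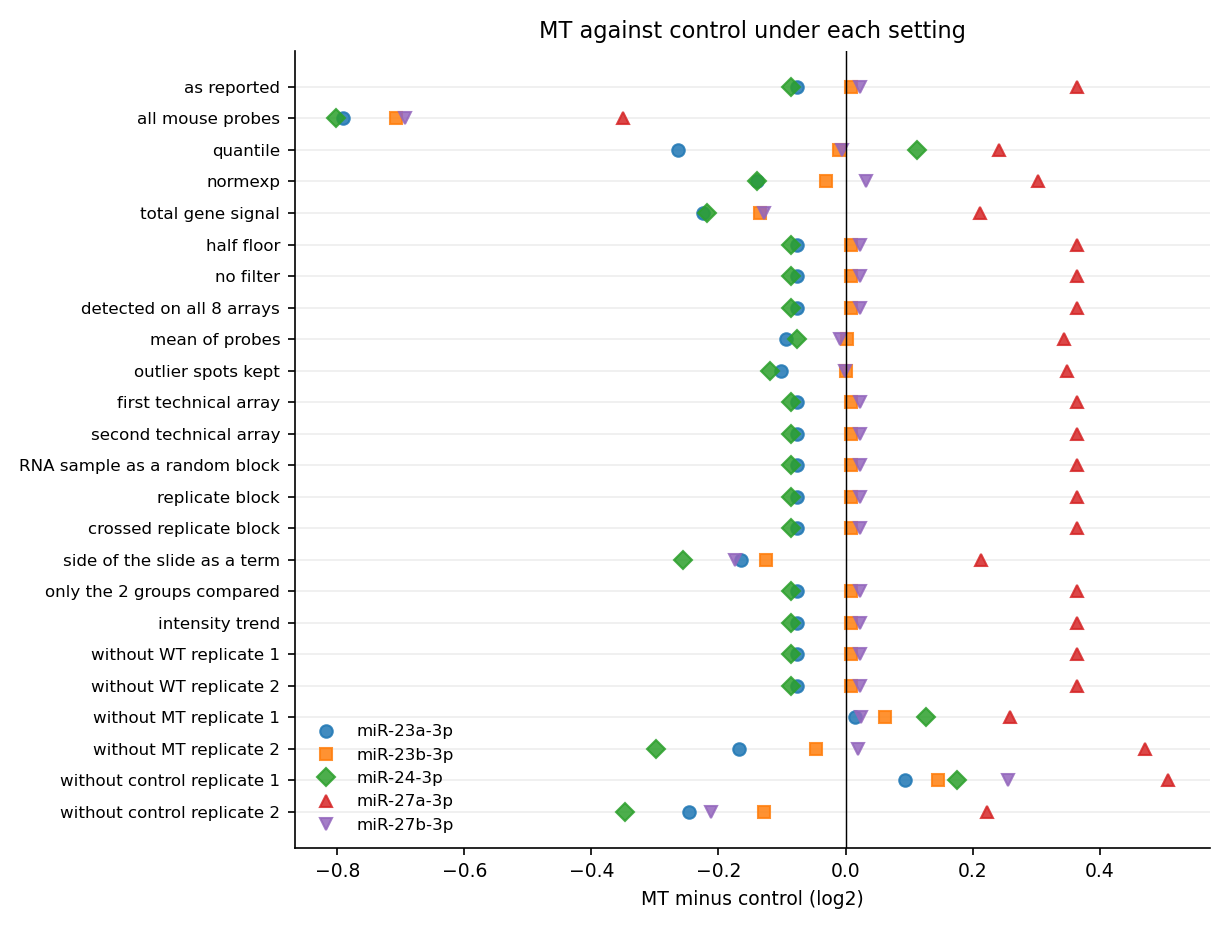
Log2 difference of each member between MT and control (horizontal axis) as reported and under each alternative processing or set of samples (vertical axis). The values of miR-27a-3p lie between -0.35 and 0.51 and are above 0 in 22 of 23 alternatives. Alternatives that change only the filter, the floor, the blocks, the variance prior or the WT arrays repeat the reported value by construction. The other members fall on both sides of 0, and scaling on all mouse probes puts all 5 below 0.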

How the data were processed

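Total RNA of C3H10T1/2 cells was hybridized to a one-colour Agilent mouse miRNA array. The authors deposited scanner output without normalization between arrays. Its header names Feature Extraction 10.7.1.1, while per the labels it was version 9.1. The background-subtracted, processed intensity of each spot was used, and the deposited value table holds the same values. Outlier spots, as Feature Extraction marked them, were removed, and the spots of a probe were averaged. A probe was detected where over 50% of its spots were well above background. Arrays were brought to a common 75th percentile, taken over probes that every one of the 8 arrays detected, then floored at a log2 level of 3.97 and taken to log2. The 2 arrays of a WT sample were averaged. Differences were fitted with limma 3.58.1 in R 4.3.3 on all 3 groups, with Benjamini-Hochberg adjustment over 142 miRNAs. The number of arrays limits the precision. On simulated data of this size with 20 miRNAs changed 4-fold and 10 changed 2-fold, limma called 20 and 9 in WT against control, 20 and 10 in MT against control, and 20 and 8 in WT against MT. It also called 1, 1 and 5 of the 112 unchanged miRNAs. The simulated noise was independent between miRNAs, and no change below 2-fold was simulated. These counts therefore do not give the power for changes as small as those of the members. In the data, 3 miRNAs differed by over 2-fold in WT against control and 0 passed the adjusted p. Exact permutation tests were two-sided.

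The 5 members were taken by name, the opposite arms, miR-128-3p and the Runx2 and cell type lists come from general knowledge, and the 3 most similar miRNAs were those with the highest Pearson r. The members and lists were chosen with earlier results of these data known. Alternatives covered the scaling, background correction, signal column, floor, filter, probes, outlier spots, technical arrays, replicate block, side of the slide, the groups fitted together, a variance prior that follows intensity, and omission of single samples. Sequences and coordinates are from RefSeq.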

Additional observations from a re-analysis of the deposited data

How the results depend on the processing

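No member passed an adjusted p of 0.05 under any of the 23 alternatives, also where limma called other miRNAs. With normexp it called 22 of 142 in WT against control and 40 in MT against control. In MT against control it called 29 of 103 detected on all 8 arrays, 11 when RNA samples entered as a random block, 30 without MT replicate 2 and 3 of 166 with the total gene signal, which also gave 3 in WT against control. The remaining counts were 0 or 1, apart from the crossed block below. Without a filter most variances were near 0, so limma's shrinkage is unreliable there.

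Of 345 values of single members, 304 kept their sign and 41 turned. Many of the 304 could not turn. A change of only the filter, the floor, the blocks, the variance prior or a group not compared leaves a difference as it was. Causes were not tested beyond the construction of each setting. In WT against control, scaling on all mouse probes gave -0.30 for miR-23b-3p, -0.19 for miR-27a-3p and -0.25 for miR-27b-3p. It kept the sign but not the size of miR-23a-3p (-0.42) and miR-24-3p (-0.41). Quantile normalization gave 0.15 for miR-24-3p and -0.025 for miR-27a-3p. For miR-23b-3p, total gene signal gave -0.017 and the side of the slide -0.0080. In MT against control, scaling on all mouse probes gave -0.71 for miR-23b-3p, -0.35 for miR-27a-3p and -0.69 for miR-27b-3p, with -0.79 for miR-23a-3p and -0.80 for miR-24-3p, and quantile normalization -0.011 for miR-23b-3p, 0.11 for miR-24-3p and -0.0049 for miR-27b-3p. Here miR-23b-3p was -0.030 with normexp, -0.13 with total gene signal and -0.12 with the side of the slide. For miR-27b-3p the values were -0.13 with total gene signal, -0.0085 with the mean of probes, -0.0012 with outlier spots kept and -0.17 with the side of the slide. In WT against MT only miR-27a-3p turned with the scaling, at 0.16 on all mouse probes.

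Leaving out 1 sample at a time gave, in WT against control, -0.23 to 0.11 for miR-23a-3p, -0.079 to 0.20 for miR-23b-3p, -0.32 to 0.21 for miR-24-3p and -0.13 to 0.34 for miR-27b-3p. In MT against control the ranges were -0.25 to 0.094, -0.13 to 0.15, -0.35 to 0.18 and -0.21 to 0.26 for these 4 members, and in WT against MT -0.073 to 0.11, -0.016 to 0.12, -0.18 to 0.24 and -0.016 to 0.18. The values of miR-27a-3p kept their sign, at 0.025 to 0.31, 0.22 to 0.51 and -0.30 to -0.091. The difference between miR-23a-3p and miR-23b-3p ran from -0.069 to 0.0051 in WT against MT, and that between miR-27a-3p and miR-27b-3p from -0.027 to 0.15 in WT against control.

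The shift of miR-27a-3p minus miR-27b-3p kept its sign in 13 of 13 alternatives in MT against control (0.23 to 0.45) and in WT against MT (-0.39 to -0.17). Scaling on all mouse probes and the lower floor leave this shift unchanged by construction, as does the choice of WT array in MT against control. In WT against control the shift turned to -0.13 with quantile normalization. For miR-23a-3p minus miR-23b-3p, WT against MT turned to 0.013 with the mean of probes.

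Whether the replicate numbers pair the samples could not be decided. The correlations of deviations from the group means were 0.02 between WT and MT, 0.39 between WT and control, and -0.46 between MT and control. With 2 samples per group, each correlation compares only 1 replicate difference per group, so it neither shows nor excludes pairing. With the replicate number as a block, 0 members and 0 of 142 miRNAs passed in each comparison. With the numbers of the MT samples exchanged, a choice made after seeing the data, 0 members passed and 26 of 142 miRNAs passed in MT against control.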
